A study of Mus musculus with 16 samples.

Results

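The Frizzled receptor genes, Fzd1 to Fzd10, are the 10 mouse genes of the Frizzled family, taken from 25755 gene symbols of the curated RefSeq annotation of GRCm38. All 10 were found, and for each the peaks of H3K4me3, H3K27me3 and Suz12 were collected from the window, which reaches 2500 bp upstream and downstream of the start site, and from the whole gene body. The rule that picks the members uses gene names and no measured value, although the family itself was chosen with earlier results of these data known.

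Frizzled proteins are cell-surface receptors that cross the membrane several times and bind Wnt ligands through a cysteine-rich domain outside the cell. With the co-receptors Lrp5 and Lrp6 they pass the signal to Dishevelled and stabilise β-catenin, and with Ror or Ryk they act in β-catenin-independent signalling such as planar cell polarity. Wnt signalling is known to sustain self-renewal of mouse ESCs. By sequence the family falls into Fzd1, Fzd2 and Fzd7, then Fzd5 and Fzd8, then Fzd4, Fzd9 and Fzd10, and then Fzd3 and Fzd6. H3K4me3 is the histone mark of CpG-rich and active promoters, H3K27me3 is the repressive mark written by the Polycomb complex PRC2, and Suz12 is a core subunit of PRC2. Promoters that carry both histone marks are called bivalent.

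The study compared the chromatin of LIF-ESCs and Myc-ESCs by ChIP-sequencing, in which the DNA pulled down with an antibody is sequenced and peaks are stretches where its reads pile up over the background. Both cultures are R1 mouse ESCs that carry MycT58A fused to the ligand-binding part of the estrogen receptor, so that OHT (4-hydroxytamoxifen) switches Myc activity on. LIF-ESCs had 100 units/ml LIF and Myc-ESCs had 50 nM OHT in place of LIF, in feeder-free medium with serum and vitamin C. There were 2 libraries per culture and antibody and 4 input libraries, but the files hold 6 peak lists, 1 per culture and antibody. The lists give no value per replicate. Differences between LIF-ESCs and Myc-ESCs could therefore not be compared with replicate error, no test was run, and the depth behind a list is unknown. LIF, OHT and the activity of the fusion protein differed together and cannot be told apart. Each peak has a score that is higher where its p-value is lower, and the score also depends on depth. The H3K27me3 lists differed most in size, with 3120 peaks in the LIF-ESC list and 16717 in that of Myc-ESCs, against 11305 and 13907 for Suz12 and 32469 and 30345 for H3K4me3. In these lists 89.1% and 79.8% of the H3K27me3 peaks scored under 100. The pluripotency genes Pou5f1, Nanog, Sox2 and Zfp42 had H3K4me3 and no Polycomb peak in either culture, and Esrrb had H3K4me3 and Suz12 in both and H3K27me3 in Myc-ESCs. Peaks do not measure expression, which was not analysed here.

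The sequences below, read from GRCm38 on the strand of the gene, show on what kind of DNA the peaks that differed between the cultures lie, with each CpG in capitals. The upstream H3K27me3 peak of Fzd10 is given first because Fzd10 was the only gene of the family with a H3K27me3 peak scoring over 100. This peak, with a score of 108, lies in an intron of the lncRNA gene Fzd10os. The other H3K27me3 peak of Fzd10, of 420 bp with a score of 153 in the coding sequence, is not printed. The upstream H3K27me3 peaks of Fzd4 come from a set that was listed in Myc-ESCs only.
Fzd10 H3K27me3, Myc-ESCs, chr5:128598679-128598899, plus strand: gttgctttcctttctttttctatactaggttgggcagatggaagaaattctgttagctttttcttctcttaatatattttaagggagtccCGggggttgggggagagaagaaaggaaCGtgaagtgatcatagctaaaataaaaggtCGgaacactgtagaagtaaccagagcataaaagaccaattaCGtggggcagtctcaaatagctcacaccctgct
Fzd4 H3K27me3 upstream, Myc-ESCs, chr7:89402643-89402798, plus strand: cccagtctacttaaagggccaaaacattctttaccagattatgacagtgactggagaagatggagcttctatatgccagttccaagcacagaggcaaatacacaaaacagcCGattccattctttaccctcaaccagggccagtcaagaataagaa
Fzd4 H3K27me3 nearer upstream, Myc-ESCs, chr7:89403050-89403199, plus strand: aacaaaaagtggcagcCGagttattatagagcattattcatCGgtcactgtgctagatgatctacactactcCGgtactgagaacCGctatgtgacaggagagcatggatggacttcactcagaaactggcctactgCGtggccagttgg
These 3 stretches hold between 1 and 5 CpG each, from 0.641 to 3.33 CpG per 100 bases. They are examples only: the median of the family's 15 H3K27me3 peaks in Myc-ESCs was 2.01, and that of the whole list 0.822. At Fzd1 the H3K27me3 peaks of Myc-ESCs lay on both sides of the start site and included a stretch of coding sequence rich in CpG.
Fzd1 H3K27me3 upstream, Myc-ESCs, chr5:4759275-4759401, minus strand: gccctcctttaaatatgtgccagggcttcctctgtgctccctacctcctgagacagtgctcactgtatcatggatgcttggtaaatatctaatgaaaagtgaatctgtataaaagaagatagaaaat
Fzd1 H3K27me3 in the coding sequence, Myc-ESCs, chr5:4756826-4756991, minus strand: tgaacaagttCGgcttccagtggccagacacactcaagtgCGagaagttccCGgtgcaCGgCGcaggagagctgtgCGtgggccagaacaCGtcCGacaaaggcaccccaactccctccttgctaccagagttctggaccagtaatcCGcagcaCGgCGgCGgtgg
The upstream stretch of Fzd1 holds 0 CpG, and the coding stretch holds 12. The Suz12 peaks of Fzd7, which were listed in LIF-ESCs only, also covered both kinds of DNA.
Fzd7 Suz12 upstream, LIF-ESCs, chr1:59480546-59480805, plus strand: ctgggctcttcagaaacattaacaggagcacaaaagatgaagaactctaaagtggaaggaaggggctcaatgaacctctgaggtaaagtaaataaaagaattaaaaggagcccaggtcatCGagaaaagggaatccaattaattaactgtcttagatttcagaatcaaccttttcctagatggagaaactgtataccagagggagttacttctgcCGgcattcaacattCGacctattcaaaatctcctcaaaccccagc
Fzd7 Suz12 in the coding sequence, LIF-ESCs, chr1:59483314-59483480, plus strand: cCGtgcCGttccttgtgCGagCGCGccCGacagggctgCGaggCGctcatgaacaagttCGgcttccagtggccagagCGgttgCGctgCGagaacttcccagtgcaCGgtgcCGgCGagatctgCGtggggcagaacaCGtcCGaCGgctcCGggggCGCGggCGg
The upstream Fzd7 peak has 1.15 CpG per 100 bases. The coding one has 13.8, the most of the 4 coding Suz12 peaks of Fzd7, of which the other 3 have 6.56 to 7.86. Fzd9 is shown for its promoter, in which the capitals mark CACGTG, the E-box that Myc and Max are known to bind.
Fzd9 promoter, 250 bases before the start site, chr5:135251048-135251297, minus strand: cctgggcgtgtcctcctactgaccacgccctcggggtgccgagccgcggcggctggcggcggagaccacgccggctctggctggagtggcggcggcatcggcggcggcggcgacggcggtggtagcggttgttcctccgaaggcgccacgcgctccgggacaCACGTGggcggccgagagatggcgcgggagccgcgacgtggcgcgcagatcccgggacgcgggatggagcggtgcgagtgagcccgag

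All 10 Frizzled genes had an H3K4me3 peak at the start site in both cultures, while of all genes 62.7% had a peak in LIF-ESCs and 63.9% had a peak in Myc-ESCs. A peak in a single culture was found at 0 of the 10, and at 2.36% (Myc-ESCs only) and 1.20% (LIF-ESCs only) of all genes. H3K27me3 was called at 2 of 10 in LIF-ESCs, Fzd1 and Fzd2, where 3.84% of all genes were called. In Myc-ESCs it was called at 6 of 10, Fzd1, Fzd2, Fzd3, Fzd4, Fzd6 and Fzd10, against 10.8% of all genes. Fzd3, Fzd4, Fzd6 and Fzd10 thus had the mark in Myc-ESCs only (4 of 10, all genes 7.69%), and 0 had it in LIF-ESCs only (all genes 0.738%).

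The count of H3K27me3 in Myc-ESCs rests on low-scoring peaks and on the length of that list. When the Myc-ESC list was limited to its 3120 highest-scoring peaks, so that both lists were equally long, only Fzd10 kept the mark in Myc-ESCs. In that comparison 1 member had it in Myc-ESCs only and 2, Fzd1 and Fzd2, in LIF-ESCs only. The cut kept Myc-ESC peaks down to a score of 104 and LIF-ESC peaks down to 50.0. It dropped the Myc-ESC peaks of Fzd1 and Fzd2, with highest scores of 87.8 and 81.9. Their LIF-ESC peaks, with scores of 78.7 and 57.1, were kept. The calls in LIF-ESCs only were thus fixed by the cut and show no direction. Over all genes the same limit left 1.76% with the mark in Myc-ESCs alone and 2.04% in LIF-ESCs alone. With a score of at least 100, Fzd10 was the only member with H3K27me3 in either culture. This is 0 of 10 in LIF-ESCs (all genes 0.462%) and 1 of 10 in Myc-ESCs (all genes 3.76%), near the share of all genes.

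Suz12 was called at 8 of 10 in LIF-ESCs, all but Fzd5 and Fzd10, where 12.2% of all genes were called. It was called at 9 of 10 in Myc-ESCs, all but Fzd7, against 14.7% of all genes. Fzd5 and Fzd10 had Suz12 in Myc-ESCs only (2 of 10, all genes 3.83%) and Fzd7 had it in LIF-ESCs only (1 of 10, all genes 1.29%). These Suz12 counts stayed the same with lists of equal length. With a score of at least 100, 4 members were left in LIF-ESCs (Fzd1, Fzd2, Fzd7 and Fzd8) and 7 in Myc-ESCs, where 8.35% and 11.4% of all genes were called. Fzd6 and Fzd9 then joined those in Myc-ESCs only (4 of 10, all genes 3.72%).

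All 3 marks together were called at Fzd1 and Fzd2 in LIF-ESCs (2 of 10, all genes 2.80%) and at 6 members in Myc-ESCs (all genes 8.94%). A comparison with genes that began from the same state gives a different reading. Among the 2887 genes with H3K4me3 and Suz12 in LIF-ESCs, 24.9% had H3K27me3 there, and so did 2 of 8 members. Of these 2887 genes, 43.8% had H3K27me3 in Myc-ESCs only, and so did 3 of 8 members, Fzd3, Fzd4 and Fzd6. The members' counts thus lay near the share among genes with Suz12. The other 2 members, Fzd5 and Fzd10, had H3K4me3 alone in LIF-ESCs, as had 13127 genes. Both had Suz12 in Myc-ESCs, where 6.60% of those genes had it, and Fzd10 had both Polycomb marks, where 2.45% had both.

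**Figure D1:**
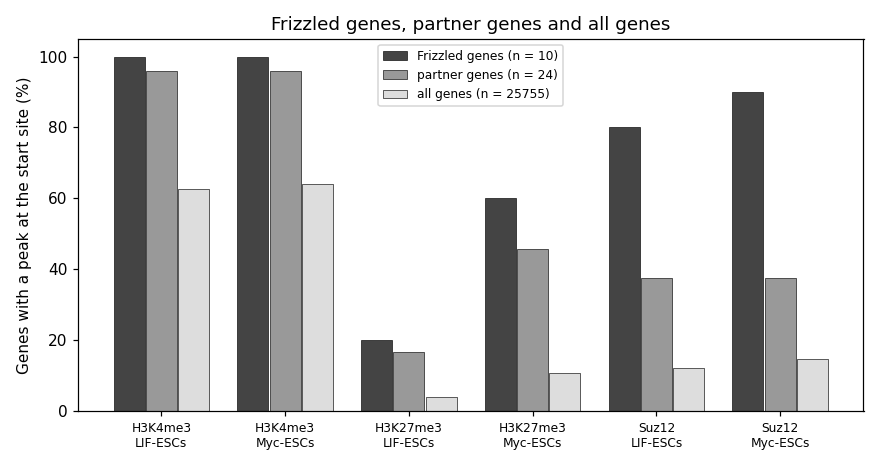
Share of genes (%) with a peak within 2500 bp of a start site in each of the 6 lists, for the 10 Frizzled genes, 24 partner genes and all 25755 genes. Suz12 is called at 8 and 9 of the 10 Frizzled genes and at 9 of the 24 partner genes in both cultures.

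The 10 genes fell into 6 different states over the 6 lists. Fzd1 and Fzd2 had every mark in both cultures, a state shared by 618 genes in all. Fzd3, Fzd4 and Fzd6 had H3K4me3 and Suz12 in both and H3K27me3 in Myc-ESCs only, as had 1215 genes, the commonest of the 6 states. Fzd8 and Fzd9 had H3K4me3 and Suz12 in both and no H3K27me3, as had 680 genes. Fzd10 had H3K4me3 in both and the Polycomb marks in Myc-ESCs only (317 genes), Fzd5 had only Suz12 in addition in Myc-ESCs (543 genes), and Fzd7 had Suz12 in LIF-ESCs only (218 genes). Of the sequence subfamilies, only Fzd3 and Fzd6 were alike in all lists.

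**Figure D2:**
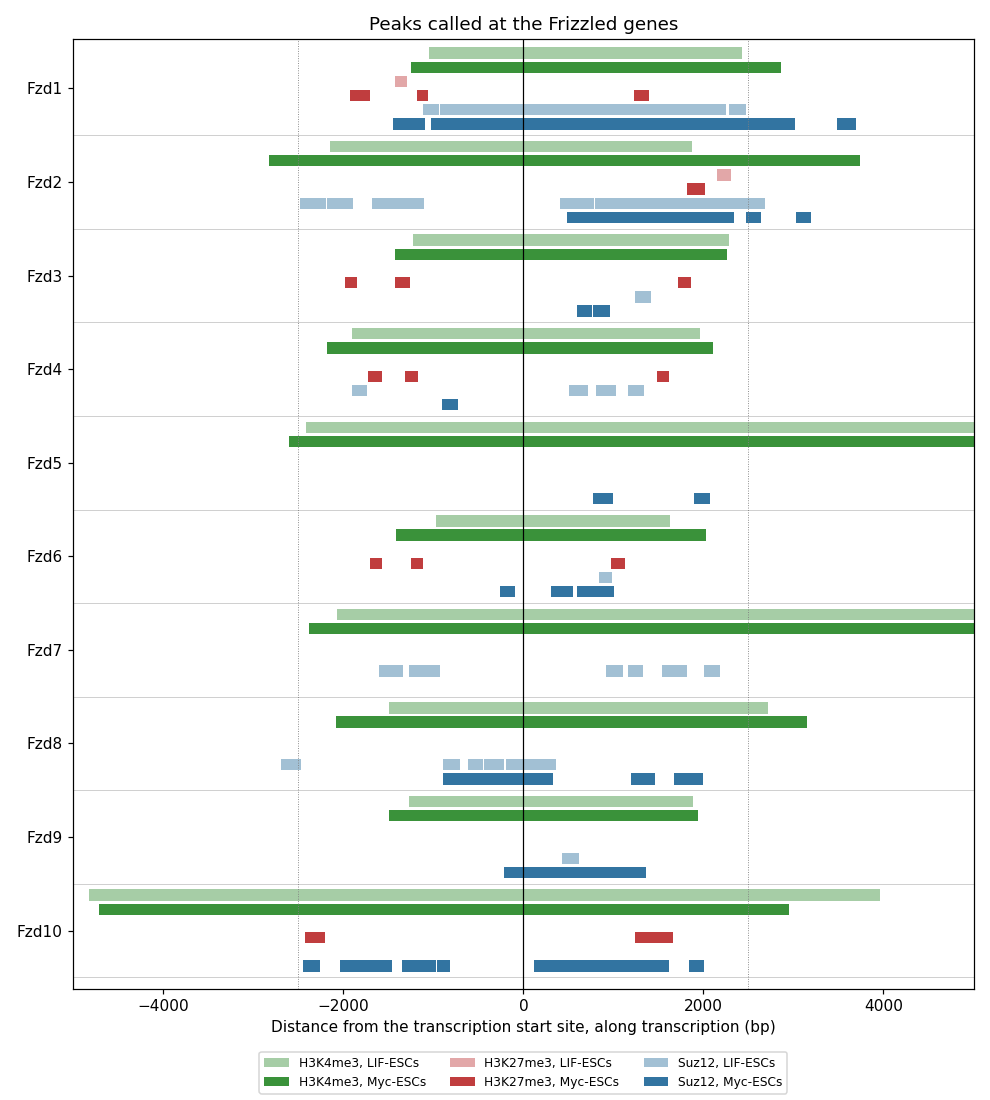
Peaks of the 6 lists at each Frizzled gene, by distance from the start site in bp along transcription (0 is the start site, for Fzd6 the first of 2; dotted lines mark the window of 2500 bp; the plot ends at 5000 bp). Pale bars are LIF-ESCs and full bars Myc-ESCs. Green H3K4me3 bars cross every start site, and red H3K27me3 bars lie to the sides of it in 6 genes.

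Fzd1 (chr5:4753839-4758216, minus strand, 1 exon) is a receptor of β-catenin signalling. It had the widest Suz12 cover of the family in both cultures. In LIF-ESCs 4 Suz12 peaks covered 3552 bases of the window, the highest with a score of 1887, and in Myc-ESCs 2 peaks covered 3886 bases, with a highest score of 3100. A value of 3100 is the most frequent score in the lists, and scores at it cannot be ranked against each other. The main Suz12 peak ran from -436 to 2255 bp in LIF-ESCs and from -1023 to 3018 bp in Myc-ESCs, both over the start site. As many bases were covered at 10.5% of the genes with Suz12 in LIF-ESCs and at 12.0% of those in Myc-ESCs.

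H3K27me3 peaks were short in general, with a median length of 157 bp in the LIF-ESC list and 162 bp in that of Myc-ESCs. For Suz12 the medians were 262 and 269 bp. At Fzd1, H3K27me3 consisted of a peak of 137 bp in LIF-ESCs (score 78.7) and of 3 peaks with 513 bases together in Myc-ESCs (highest score 87.8). The medians over all genes with the mark were 163 bases in LIF-ESCs and 352 in Myc-ESCs. The LIF-ESC peak overlapped none of the Myc-ESC peaks, which ran from -1923 to -1704, from -1185 to -1059 and from 1225 to 1390 bp.

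Fzd2 (chr11:102604431-102608058, plus strand, 1 exon), known as a receptor for Wnt5a, had all marks too, but its Suz12 cover was smaller in Myc-ESCs. Suz12 peaks covered 3248 bases of the window in LIF-ESCs (5 peaks, highest score 1514) and 1888 bases in Myc-ESCs (2 peaks, highest score 1372). Most of the difference lay on the upstream side, and the rest downstream within the window. In LIF-ESCs 3 Suz12 peaks with scores of 73.5 to 160 lay between -2488 and -1106 bp, and in Myc-ESCs none lay upstream of the start site. From the farthest to the nearest, 67.7%, 73.4% and 26.5% of the bases of these 3 peaks were masked as repeat. Over the coding sequence the largest peaks of both cultures overlapped, from 796 to 2683 bp in LIF-ESCs and from 483 to 2338 bp in Myc-ESCs. H3K27me3 was a single short peak in each culture, of 155 bp (score 57.1) and 202 bp (score 81.9), downstream of the start site and not overlapping each other. The H3K4me3 peak of Fzd2 went the other way from its Suz12 cover, with 4018 bp and a score of 1247 in LIF-ESCs and 6571 bp and 3100 in Myc-ESCs. A length ratio of 1.64 was the highest of the family.

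Fzd7 (chr1:59482147-59486955, plus strand, 1 exon), the relative of Fzd1 and Fzd2 that is known as a main Wnt receptor of pluripotent cells, had no H3K27me3 peak in either list. In LIF-ESCs 6 Suz12 peaks of 167 to 353 bp covered 1439 bases of its window, with scores from 57.8 to 111. In Myc-ESCs there was none, and the nearest Suz12 peak lay 1705913 bp from the start site. Of the 6 peaks 2 were upstream, from -1601 to -925 bp, and 4 within the coding sequence, from 913 to 2184 bp. Its H3K4me3 peak was long and of score 3100 in both cultures, 8371 bp long in LIF-ESCs against 9311 bp in Myc-ESCs. The nearest H3K27me3 peak was 3219774 bp away in LIF-ESCs and 29047 bp away in Myc-ESCs. Such long distances, here and below, also depend on the size of the list, for H3K27me3 3120 peaks against 16717. They were not compared with those of other genes without a peak at the start site.

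Fzd5 (chr1:64730558-64737750, minus strand, 2 exons), needed for blood vessel formation in the yolk sac, had the longest H3K4me3 peak of the family in both cultures. This peak was 11067 bp long in LIF-ESCs and covered the whole gene, and was 9735 bp long in Myc-ESCs. One as long was found at 2.18% of genes in LIF-ESCs, and at 1.24% in Myc-ESCs. No Suz12 peak was called there in LIF-ESCs, where the nearest was 572878 bp away. In Myc-ESCs it was called as 2 small peaks of 221 and 183 bp, with scores of 103 and 62.6, which lay downstream of the start site from 771 to 991 and from 1893 to 2075 bp. H3K27me3 was called in neither culture, and in Myc-ESCs its nearest peak was 45524 bp away.

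Fzd8 (chr18:9212856-9216201, plus strand, 1 exon) belongs with Fzd5 by sequence but had Suz12 in both cultures. In LIF-ESCs 5 peaks covered 1190 bases, from 178 to 559 bp long with scores of 65.9 to 196, and in Myc-ESCs 3 peaks covered 1805 bases with a highest score of 511. In LIF-ESCs 4 of the peaks lay side by side from -897 to 359 bp. In Myc-ESCs a single peak of 1222 bp spanned nearly the same stretch, from -889 to 332 bp, and 2 peaks were added over the coding sequence. The number of peaks therefore went down where the bases covered went up. Its H3K4me3 score was the lowest of the family in LIF-ESCs, at 514, and was 1982 in Myc-ESCs, with lengths of 4211 and 5231 bp. No H3K27me3 peak was nearer than 494184 bp in Myc-ESCs.

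Fzd4 (chr7:89404366-89410110, plus strand, 2 exons), the receptor of norrin in retinal vessels, lies head to head with Tmem135, whose start site is 337 bp into Fzd4 on the other strand. Their peaks cannot be assigned to either gene. H3K27me3 was called at Fzd4 in Myc-ESCs only, in 3 peaks of 143 to 156 bp that covered 449 bases and had scores of 53.3 to 62.0. Of these, 2 lay in an intron of Tmem135 and the other in the intron of Fzd4. In LIF-ESCs the nearest H3K27me3 peak was 1073028 bp away. Suz12 went from 4 peaks with 793 bases in LIF-ESCs to a peak of 182 bases in Myc-ESCs, with highest scores of 81.6 and 72.5. The Myc-ESC Suz12 peak, from -905 to -724 bp, overlapped none of the LIF-ESC peaks and no H3K27me3 peak.

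Fzd9 (chr5:135248938-135251047, minus strand, 1 exon), a gene of the chromosome region that is deleted in Williams syndrome in humans, had Suz12 in both cultures and H3K27me3 in neither. Suz12 was a peak of 193 bp with a score of 65.5 in LIF-ESCs, and a peak of 1573 bp with a score of 777 in Myc-ESCs. The LIF-ESC peak lay from 427 to 619 bp, inside the Myc-ESC peak, which ran from -211 to 1361 bp and crossed the start site. As many bases as at Fzd9 were covered at 90.1% of the genes with Suz12 in LIF-ESCs, and at 44.1% of those in Myc-ESCs. The nearest H3K27me3 peak was 161474 bp away in Myc-ESCs. The H3K4me3 peak measured 3153 bp in LIF-ESCs and was slightly longer, 3433 bp, in Myc-ESCs.

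Fzd10 (chr5:128601106-128604093, plus strand, 1 exon), expressed in the dorsal neural tube of the embryo, had the largest difference of the family in both Polycomb marks. No Suz12 peak was within 48352 bp of its start site in LIF-ESCs. In Myc-ESCs 6 Suz12 peaks covered 2966 bases of the window, the longest of them 1497 bp with a score of 864, from 116 to 1612 bp. Of genes with Suz12 in Myc-ESCs, 19.6% had as many bases covered.

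H3K27me3 at Fzd10 was called in Myc-ESCs as 2 peaks with scores of 108 and 153, the only H3K27me3 peaks of the family over 100. The longer, of 420 bp, ran from 1238 to 1657 bp within the coding sequence and overlapped the long Suz12 peak. The shorter, printed above, overlapped a Suz12 peak from -2454 to -2256 bp. In LIF-ESCs the nearest H3K27me3 peak was 1355960 bp away. The H3K4me3 peak of Fzd10 covered the whole window in both cultures, with 8787 and 7661 bp, and it also covers the start of the lncRNA gene Fzd10os, 419 bp upstream on the other strand.

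Fzd3 (chr14:65192441-65262463, minus strand, 7 exons) and Fzd6 (chr15:39006149-39038192, plus strand, 7 exons) act together in planar cell polarity, which orients axons and hair follicles. Both had the same state in all lists, with short H3K27me3 and Suz12 peaks. At Fzd3, 3 H3K27me3 peaks of 137 to 163 bp covered 445 bases in Myc-ESCs, with scores of 54.4 to 70.4, and none was within 846904 bp in LIF-ESCs. At Fzd6, 3 H3K27me3 peaks of 131 to 149 bp covered 416 bases in Myc-ESCs, with scores of 56.4 to 63.6, and the nearest in LIF-ESCs was 71311 bp away. Each gene thus had 2 H3K27me3 peaks upstream and 1 downstream of the start site, as did Fzd1 and Fzd4 in Myc-ESCs.

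Suz12 at Fzd3 was a peak of 186 bp (score 66.9) in LIF-ESCs and 2 peaks with 369 bases (highest score 59.5) in Myc-ESCs, all in the intron and none overlapping between the cultures. Suz12 at Fzd6 was a peak of 142 bp (score 69.2) in LIF-ESCs and 3 peaks with 829 bases (highest score 111) in Myc-ESCs. Among genes with Suz12 in LIF-ESCs, 93.8% had as many bases covered as Fzd3 and 99.5% as many as Fzd6. The lncRNA gene Gm26704 starts 789 bp into Fzd6 on the other strand, within the reach of these peaks.

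**Figure D3:**
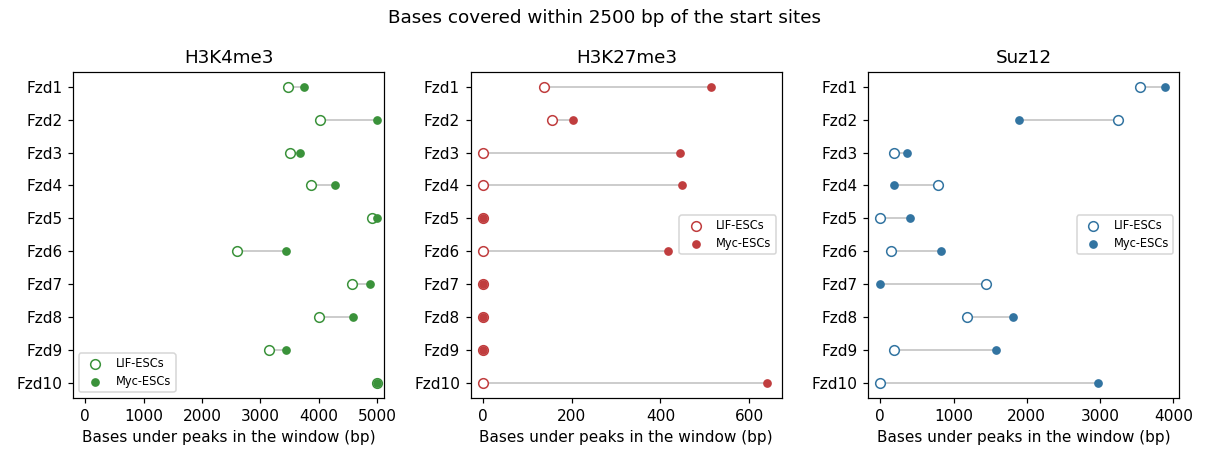
Bases under the peaks of each mark within 2500 bp of the start sites (bp), for each Frizzled gene in LIF-ESCs (open circles) and Myc-ESCs (filled circles). The horizontal axes differ between the marks. H3K27me3 reaches at most 641 bases, at Fzd10, and Suz12 cover is smaller in Myc-ESCs at Fzd2, Fzd4 and Fzd7.

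Summed over the windows of the 10 genes, H3K4me3 covered 39102 bases in LIF-ESCs and went to 43052 in Myc-ESCs, by 10 peaks each. H3K27me3 covered 292 bases in 2 peaks and 2666 bases in 15 peaks. Suz12 covered 10743 bases in 27 peaks and 13902 bases in 22 peaks, fewer peaks with more bases. By gene, 7 of 10 had more bases under Suz12 in Myc-ESCs, where 79.2% of the genes with Suz12 in either culture did. All 6 members with H3K27me3 had more bases under it in Myc-ESCs, where 90.7% of the genes with that mark in either culture did. With lists of equal length, a cut that drops Myc-ESC H3K27me3 peaks under a score of 104, this no longer held. Then 641 bases, all at Fzd10, were left in Myc-ESCs against the same 292 in LIF-ESCs. Fzd1 and Fzd2 had the mark in LIF-ESCs alone, because the cut removed their Myc-ESC peaks. Both shares of the family, with the full lists, lay near those of all marked genes.

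Each of the 10 H3K4me3 peaks overlapped its counterpart in the other culture, by at least 50% of both peaks. Over the windows of all genes, 96.3% (LIF-ESCs) and 95.3% (Myc-ESCs) of the H3K4me3 peaks had such an overlap of at least 1 bp, so the family was like other genes here. Of the 2 LIF-ESC and 15 Myc-ESC H3K27me3 peaks 0 overlapped, where over the windows of all genes 55.4% and 10.1% did. With so few peaks these counts do not set the family apart. For Suz12, 12 of 27 peaks in LIF-ESCs and 7 of 22 in Myc-ESCs overlapped, where over all windows 82.1% and 50.0% did. Only 2 in each list, at Fzd1 and Fzd2, overlapped by at least 50% of both peaks.

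H3K27me3 lay beside the start sites. No H3K27me3 peak of the family crossed a start site. In Myc-ESCs the nearest was 924 bp from a start site, the second of Fzd6, and the nearest peak of the 6 genes lay at a median distance of 1202 bp, with 880 bp over all genes with the mark. Crossing was rare in general, found at 3.88% of all genes that had H3K27me3 in Myc-ESCs. Suz12 crossed the start sites of Fzd1 and Fzd8 in LIF-ESCs and of Fzd1, Fzd8 and Fzd9 in Myc-ESCs, where over all genes with Suz12 39.6% and 49.1% did. Of the 15 Myc-ESC H3K27me3 peaks, 12 overlapped the H3K4me3 peak of the same gene, 6 overlapped a Suz12 peak and 11 had one within 1000 bp. Over the windows of all genes, the corresponding shares were 60.3%, 63.1% and 87.9% of the H3K27me3 peaks. All 22 Suz12 peaks of the family in Myc-ESCs, and 25 of 27 in LIF-ESCs, overlapped an H3K4me3 peak (all windows 88.2% and 79.5%).

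The H3K4me3 peak over the start site was longer in Myc-ESCs at 8 of 10 members, and at 61.4% of the 15086 genes with such a peak in both cultures. Fzd5 and Fzd10 were shorter in Myc-ESCs, by ratios of 0.880 and 0.872. The median ratio of length was 1.11 for the family and 1.04 over all genes. Lengths ranged from 2596 bp at Fzd6 to 11067 bp at Fzd5 in LIF-ESCs and from 3433 bp at Fzd9 to 9735 bp at Fzd5 in Myc-ESCs. Fzd5, Fzd7 and Fzd10 had the 3 longest peaks in both cultures. Of the genes with a peak over a start site in LIF-ESCs, 5.12% and 4.50% had one as long as those of Fzd7 and Fzd10. The next longest were Fzd8 in LIF-ESCs, with 4211 bp, and Fzd2 in Myc-ESCs, with 6571 bp.

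**Figure D4:**
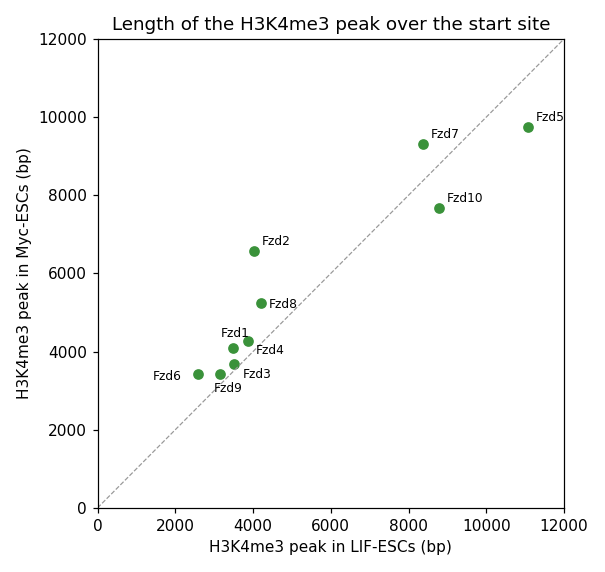
Length of the H3K4me3 peak over the start site (bp) of each Frizzled gene in LIF-ESCs (horizontal axis) against Myc-ESCs (vertical axis), with the dashed line where both are equal. Fzd5, Fzd7 and Fzd10 lie at the long end, Fzd5 and Fzd10 lie under the line, and the other 8 genes lie above it.

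Over the gene bodies the picture was nearly that of the windows, since 58 of the 60 peaks over a body also lay in the window. H3K4me3 was over the body of all 10 genes in both cultures (all genes 65.4% and 66.5%). H3K27me3 was over the body of Fzd2 alone in LIF-ESCs (1 of 10, all genes 4.07%) and of the same 6 genes as at the start site in Myc-ESCs (all genes 11.2%). Suz12 was over the body of 8 genes in LIF-ESCs (all genes 12.5%) and of 8 in Myc-ESCs (all genes 15.3%). Fzd4 and Fzd7 had it there in LIF-ESCs only and Fzd5 and Fzd10 in Myc-ESCs only. The share of all genes with Suz12 over the body in a single culture was not computed, so these calls cannot be set against it. The largest share of a body under Suz12 was 73.8%, at Fzd1 in Myc-ESCs. For Fzd9 the share was 9.15% in LIF-ESCs and 64.5% in Myc-ESCs. In the long genes Fzd3 and Fzd6 the peaks stayed at the 5′ end, and H3K4me3 covered 3.26% and 5.49% of their bodies in LIF-ESCs.

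The DNA under the peaks varied from gene to gene. In Myc-ESCs the median CpG content was 2.01 per 100 bases under the 15 H3K27me3 peaks of the family and 0.822 over the whole list, with members' values from 0 to 7.43. Under Suz12 peaks in Myc-ESCs it was 5.46 for 19 peaks outside chromosome 18 and 2.99 over the list, and in LIF-ESCs 3.22 for 22 peaks and 3.32 over the list. At least 50% of the bases were masked as repeat in both LIF-ESC H3K27me3 peaks and in 1 of the 15 Myc-ESC peaks, at Fzd6. Over the whole lists this held for 21.4% and 16.5% of the H3K27me3 peaks. For Suz12 it held for 2 of 27 LIF-ESC peaks, both at Fzd2 (list 3.95%), and for 0 of 22 Myc-ESC peaks (list 4.58%). Repeats lower the number of reads that map uniquely, and their part in the calls was not tested.

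Promoter sequences, from 250 bases before to 50 after the start, were held for Fzd1, Fzd4, Fzd5, Fzd7, Fzd9 and Fzd10 in the RefSeq table of GRCm38. Entries for Fzd2, Fzd3, Fzd6 and Fzd8 were missing. The 6 promoters had a median of 11.7 CpG per 100 bases, from 5.33 at Fzd1 to 17.7 at Fzd9, where the median of 32851 promoters was 2.33. Only 0.451% of the promoters had as much CpG as that of Fzd9. The palindrome CACGTG, which reads the same on both strands, was in the promoter of Fzd9 alone of these 6, starting at -88 bp. It was in 7.15% of all promoters. CACGTG holds a CpG, and its share among promoters as rich in CpG as that of Fzd9 was not computed. A match of letters does not show that Myc binds there.

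The 24 partner genes act with the Frizzled receptors, except Smo, which belongs to the same receptor class. Of them 23 had H3K4me3 in both cultures (all genes 62.7% and 63.9%). Ndp, the gene of norrin, had no peak in any list. H3K27me3 was called at 4 partners in LIF-ESCs (all genes 3.84%). In Myc-ESCs it was called at all of these and a further 7, 11 together (all genes 10.8%, and 7.69% in Myc-ESCs only). With lists of equal length, a cut that shortens only the Myc-ESC list, 3 remained in Myc-ESCs. There 1 had the mark in Myc-ESCs alone and 2 in LIF-ESCs alone, as for the receptors. With a score of at least 100 in both lists, 4 had it in Myc-ESCs (Sfrp5, Frzb, Adgra2 and Reck) and 0 in LIF-ESCs. Of all genes 3.76% and 0.462% had it at that limit. Suz12 was called at 9 in each culture (all genes 12.2% and 14.7%). Lgr6 and Smo had it in Myc-ESCs only (all genes 3.83%), and Rnf43 and Znrf3 in LIF-ESCs only (all genes 1.29%). A score of at least 100 left Suz12 at 4 partners in LIF-ESCs and 7 in Myc-ESCs (all genes 8.35% and 11.4%). Then Ror1, Sfrp1 and Tspan12 had it in Myc-ESCs only (all genes 3.72%) and 0 in LIF-ESCs only. In the full lists 11 partners had no Polycomb peak in either culture.

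None of the 6 co-receptors had H3K27me3, and of Lrp5, Lrp6, Ror1, Ror2, Ryk and Ptk7 only Ror1 had Suz12, in both cultures. The adaptors Dvl1, Dvl2 and Dvl3 had neither mark. For these groups the counts lay near the shares of all genes given above. Secreted Frizzled-like proteins bind Wnt away from the receptor. Of their genes, 1 of 5 had H3K27me3 in LIF-ESCs (all genes 3.84%) and 4 of 5 in Myc-ESCs (all genes 10.8%). Suz12 was at 3 of 5 in each (all genes 12.2% and 14.7%). Sfrp1, Sfrp5 and Frzb, with H3K4me3 and Suz12 in LIF-ESCs, had H3K27me3 in Myc-ESCs only, as had 43.8% of genes with that start. With lists of equal length only Frzb of these 5 had H3K27me3 in Myc-ESCs. Sfrp2, whose peaks scored 54.2 in LIF-ESCs and 53.3 in Myc-ESCs, then had it in LIF-ESCs alone. With a score of at least 100, Sfrp5 and Frzb had it in Myc-ESCs and none in LIF-ESCs. Of the 5 genes, Frzb had the highest H3K27me3 score, 296, and Sfrp1 went from 203 to 3539 bases under Suz12. Sfrp2 had H3K27me3 in both cultures without Suz12, and Sfrp5 had Suz12 in both and H3K27me3 in Myc-ESCs only.

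Of the ubiquitin ligases that remove Frizzled from the cell surface, Rnf43 and Znrf3 had H3K27me3 in Myc-ESCs, each with a score of 62.9. Znrf3 also had it in LIF-ESCs, with a score of 87.6. Suz12 was called at both in LIF-ESCs only, as at Fzd7. Their Suz12 peaks were small, 1 at each gene, with scores of 88.8 and 65.8. With a score of at least 100 the Suz12 call in LIF-ESCs only was kept at Fzd7, and neither ligase kept a Polycomb peak. Of the R-spondin receptors, Lgr5 had Suz12 in both cultures and 6 H3K27me3 peaks in Myc-ESCs, Lgr6 had 2 Suz12 peaks in Myc-ESCs, and Lgr4 had neither mark. Of the genes that work with Fzd4 in vessels, Tspan12 went from 147 to 1908 bases under Suz12, Adgra2 had all 3 marks in both cultures, and Reck had H3K27me3 in both without Suz12. Smo, a membrane protein of the same receptor class that acts in Hedgehog signalling, had H3K27me3 (score 51.1) and Suz12 in Myc-ESCs only.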

How the data were processed

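ChIP-sequencing of H3K4me3, H3K27me3 and Suz12 in LIF-ESCs and Myc-ESCs was analysed from the deposited peak lists. The authors aligned HiSeq2000 reads to GRCm38 (mm10) with Bowtie2 2.2.3, kept uniquely mapped reads and called peaks with MACS 1.4.2 at default settings. Each deposited peak has a score, which MACS derives from the p-value, and the lowest is about 50.0. The paper's methods give independent biological samples for ChIP in general, and do not say if a list was called on pooled libraries. A deeper library yields more peaks and higher scores.

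Peaks were matched to 45302 curated RefSeq transcripts, without pseudogenes, by an overlap of at least 1 bp. All members are named, and partner genes are named where they have a Polycomb peak or belong to a small class. The members and lists were chosen with earlier results of these data known. Python 3.11.15, pandas 2.3.3, numpy 2.4.6, pysam 0.24.0 and matplotlib 3.10.9 were used, and interval code was tested on simulated data (0 of 9000 comparisons wrong). The calls were repeated with a score limit of 100, lists of equal length, windows of 1000 and 5000 bp, the annotated gene start alone, the middle of the peak, and a 50% overlap.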

Additional observations from a re-analysis of the deposited data

How the results depend on the processing

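No paired analysis was possible because each list stands for a culture and not for a replicate, and no result comes from a test. Over 138 recomputed values, 104 stayed within 1.5 times the reported one and 34 did not. With a window of 5000 bp or the annotated gene start alone, all counts of members stayed within that range. For H3K27me3 at the start site, the LIF-ESC count of 2 became 0 with a score of at least 100 or a window of 1000 bp, and so did the count with all 3 marks. The Myc-ESC count of 6, the count in Myc-ESCs only of 4 and the Myc-ESC count with all 3 marks of 6 became 1 with a score of at least 100, lists of equal length or a window of 1000 bp. That gene was Fzd10 for the first pair and Fzd6 for the narrow window. With lists of equal length 2 members, Fzd1 and Fzd2, had H3K27me3 in LIF-ESCs only. The bases under H3K27me3 in Myc-ESCs fell from 2666 to 641 with either limit on the list. For Suz12 a score of at least 100 gave 4 members in LIF-ESCs and 4 in Myc-ESCs only. Over the gene bodies, a score of at least 100 gave 0 and 1 members with H3K27me3 in LIF-ESCs and Myc-ESCs and 4 with Suz12 in LIF-ESCs, and lists of equal length gave 1 with H3K27me3 in Myc-ESCs. Requiring the middle of the peak in the window put the H3K4me3 of 1 gene, Fzd5, in Myc-ESCs only. Equal lists keep H3K27me3 peaks of Myc-ESCs down to a score of 104, and a shorter list can only lose calls. The depth of the libraries is unknown, so a missing peak says that none was called, not that the mark was absent.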
